A study of Mus musculus with 8 samples.

Results

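Matrix metalloproteinases (MMPs), the ADAMTS proteases, the ADAMTS-like proteins and the tissue inhibitors of metalloproteinases (TIMPs) were followed in the palatal shelves of mouse embryos with and without a Cre that deletes floxed Yap and Taz. Members were taken by symbol among genes annotated as protein-coding: Mmp, Adamts or Adamtsl followed by a number, and Timp1 to Timp4. The rule found 50 of the 55536 genes in the table: 22 MMPs, 19 ADAMTS genes, 5 ADAMTS-like genes and 4 TIMPs. Mmp1a matched by name but carried another annotation class and was left out. Tissue came from posterior shelves at E14.5 before elevation, epithelium and mesenchyme together, in 4 control libraries (genotype Yapfl/fl;Tazfl/fl) and 4 mutant libraries (Yapfl/fl;Tazfl/fl;Col2Cre). Both groups therefore carry the floxed alleles, and the mutants add Col2Cre, a Cre transgene under Col2a1 regulatory sequence, which is active in cartilage and related skeletal precursors rather than in every cell of the shelf. In such bulk tissue, fewer cells of a type and less RNA per cell cannot be told apart. No label ties a library to a separate animal, so p-values measure the spread between these libraries, which may be technical.

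MMPs and ADAMTS proteases cut collagens, proteoglycans and other matrix proteins with a zinc ion held in the active site. MMPs are made as inactive precursors, and TIMPs block the active enzymes. Membrane-type MMPs sit on the cell surface, where Mmp14 protein activates the Mmp2 precursor with Timp2 protein as the bridge. Among ADAMTS proteases, one group cleaves aggrecan and versican and another trims procollagens before fibrils assemble. The ADAMTS-like proteins share the ancillary domains but have no protease domain, and several bind microfibrils. Versican cleavage by Adamts9 and Adamts20 is known to be needed for closure of the mouse palate.

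In the reference sequence the zinc-binding motif sets MMPs and all ADAMTS genes but Adamts8 apart from ADAMTS-like genes and TIMPs. Its coding sequence is shown for members that the results below turn on. The search was for the zinc-binding motif of the metzincins, read in frame on the coding strand of the longest coding transcript of each gene in GENCODE M21. Capitals mark the 3 histidine codons that hold the zinc and the codon between the last pair of them, which is glycine in most metzincins.
Mmp2: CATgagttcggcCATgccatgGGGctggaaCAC
Mmp14: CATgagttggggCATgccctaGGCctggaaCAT
Mmp17: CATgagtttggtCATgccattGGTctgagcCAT
Mmp11: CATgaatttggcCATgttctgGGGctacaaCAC
Mmp9: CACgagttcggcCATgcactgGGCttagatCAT
Mmp13: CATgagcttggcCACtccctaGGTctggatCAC
Adamts2: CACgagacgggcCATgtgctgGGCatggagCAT
Adamts16: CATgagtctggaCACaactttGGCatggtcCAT
Adamts4: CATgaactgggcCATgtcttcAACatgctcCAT

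All 22 MMPs held the motif with glycine, 13 of 19 ADAMTS genes held it with glycine, and 5 held it with asparagine in that place. The asparagine form was found in Adamts1, Adamts4, Adamts9, Adamts15 and Adamts20, all in the proteoglycan-cleaving group, and in no other gene of the 21901 searched. Adamts8 matched neither form. The search allowed only glycine or asparagine in that place, so this does not show that Adamts8 lacks a zinc site. None of the 5 ADAMTS-like genes and none of the 4 TIMPs matched. Of all protein-coding genes 74 matched, which is 0.338%, and the members with it are 22 MMPs and 18 ADAMTS genes. In GRCm38 the Mmp17 site lies in coding sequence on chromosome 5 from 129596597 to 129596629 on the plus strand, within 1 exon, while the Adamts2 site is split by an intron on chromosome 11 between 50775403 and 50776134.

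Of the 50 members, 42 passed the filter on low values and were tested (at least 10 normalised counts in 4 or more libraries). All 8 that did not pass were MMPs. Mmp1b, Mmp21 and Mmp27 had no reads in any library, where up to 3 reads per library could have been missed. The highest values of the others were 16.7 normalised counts for Mmp8 in control replicate 4, 9.1 for Mmp3, 8.1 for Mmp7 and 4.0 for Mmp10 in mutant replicate 4, and 2.0 for Mmp20 in control replicate 4. A normalised count is the read count of a gene divided by a size factor of its library.

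The silent MMPs lay together. By the deposited coordinates, 9 MMP genes stand in a row on chromosome 9 between 7272514 and 7699585, a span of 427 kb with no other protein-coding gene, and 7 of the 8 untested members are among them. Of the 9, only Mmp13 and Mmp12 passed the filter, Mmp13 with a mean of 188.75 normalised counts in controls and Mmp12 with one of 38.25. Mmp13, at one end of the cluster, encodes a collagenase of hypertrophic cartilage and bone. The 150 bases before its start (RefSeq, GRCm38.p6, chr9:7272364-7272513, plus strand) are shown because this is the member of the cluster with the most reads. Capitals mark a match to TGTGGT on the opposite strand, the core letters bound by RUNX factors, and one to TGACTCA, those bound by AP-1.
Mmp13: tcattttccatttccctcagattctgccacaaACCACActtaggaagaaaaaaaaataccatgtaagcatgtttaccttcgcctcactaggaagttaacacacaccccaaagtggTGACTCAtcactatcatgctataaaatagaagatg

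The matches begin 118 and 35 bases before the start. RefSeq promoters, 250 bases before to 50 after a start, were matched for 35 of the 50 members, with 38 promoters in all. On either strand TGACTCA was present in 6 of the 38 (15.8%), against 5.20% of 32851 promoters of all genes. These belong to 6 of the 9 genes of the cluster (Mmp1b, Mmp3, Mmp7, Mmp10, Mmp12 and Mmp13). TGTGGT was present in 6 of the 38 (15.8%), against 16.8% of all promoters. GGAATG, the core bound by the TEAD partners of YAP and TAZ, was present in 2 of the 38 (5.26%), against 14.7% of all promoters. These 2 belong to Adamts13 and Timp1. No matches to different motifs overlapped. A match is a description of the letters in this window and not a site.

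**Figure D1:**
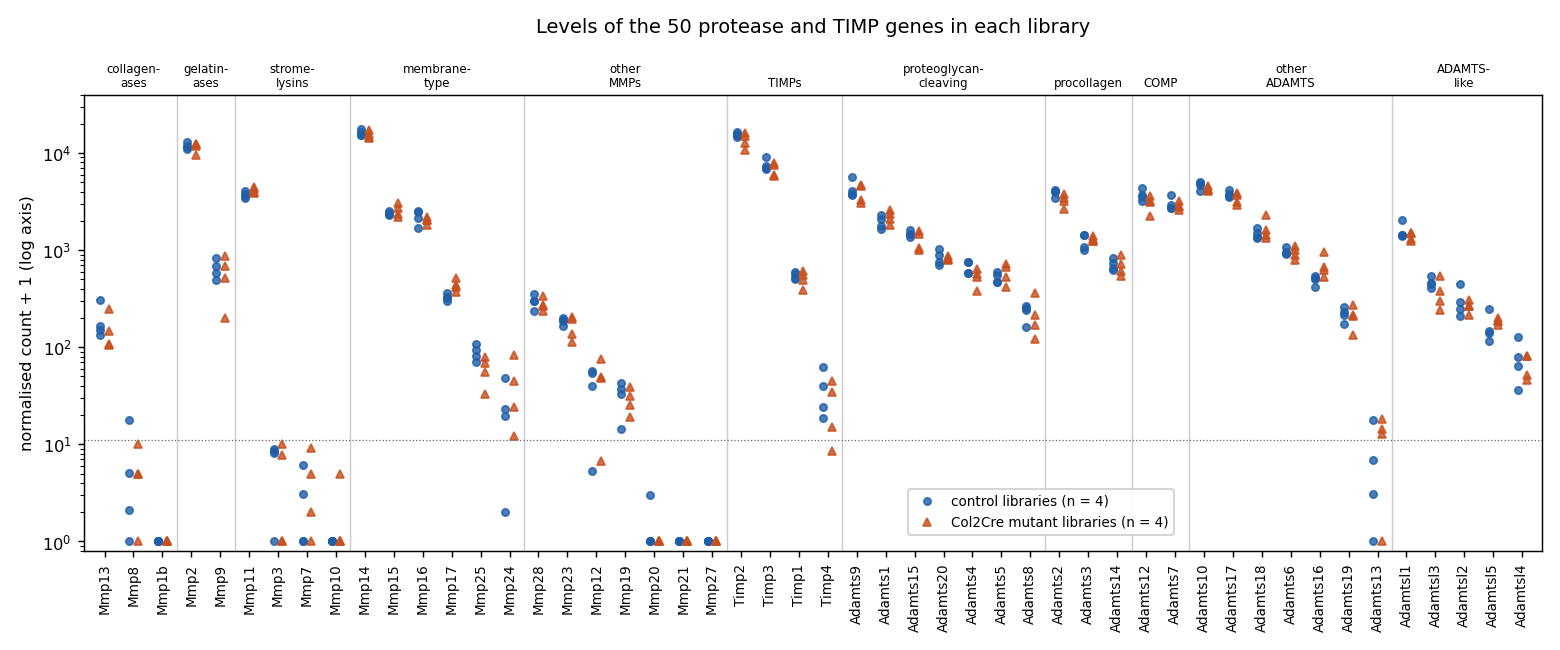
Normalised count plus 1 (log axis) of all 50 members in each of 4 control (circles) and 4 mutant (triangles) libraries, arranged by known role, with a dotted line at the filter value of 10. Mmp14, Mmp2 and Timp2 lead at about the same height in both groups, and the 8 untested MMPs lie near the floor.

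Levels between genes were compared per length, as normalised counts per kilobase of merged exons. The order in controls was led by Timp2 at 3985 ± 199 (SD, n = 4), Mmp2 at 3513 ± 229, Mmp14 at 2714 ± 177, Mmp11 at 1337 ± 89.8 and Timp3 at 931 ± 127. The mutants had the same leading genes, with Timp2 at 3506 ± 612, Mmp2 at 3414 ± 388, Mmp14 at 2599 ± 233, Mmp11 at 1491 ± 90.8 and Timp3 at 839 ± 133. Timp2 and Mmp2 were within their spread of each other in mutants. The genes of the Mmp14, Timp2 and Mmp2 activation complex were thus the most abundant members in both groups. The highest ADAMTS level belonged to Adamts10, a microfibril-associated protease, at 565 ± 47.9 per kilobase in controls. Mmp14 and Mmp2 together made up 70.0% to 72.0% of the summed MMP level in control libraries and 68.1% to 70.2% in mutant ones.

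Depth was even, with 29025089 to 32437977 reads recovered per library, but the make-up of the libraries differed between the groups. The gene Gm42418 took 4.22% to 5.66% of reads in the controls and 1.56% to 2.48% in the mutants. Summed normalised counts were 3.09e+07 to 3.21e+07 in the controls and 2.95e+07 to 3.02e+07 in the mutants. The part of this difference in the members' values was not tested. Yap1 had 9095 to 10086 normalised counts in the controls and 8221 to 8745 in the mutants, and Wwtr1, which encodes TAZ, 4449 to 5305 and 3650 to 4574. The counts do not separate floxed exons and so do not measure deletion. Markers of palatal mesenchyme were present in every library, with 7 of 7 tested and a summed level of 69038 to 78838 in the controls and 65368 to 81766 in the mutants. Of 9 markers of bone-forming cells, 7 were tested and all of these had lower means in mutants, with Bglap at 0 in all libraries, and their summed level was 21478 to 40332 in the controls and 5983 to 20243 in the mutants.

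Whether the loss of Yap and Taz in Col2Cre cells goes with altered expression of these genes was asked by fitting mutants against controls over all 16647 genes that passed the filter (limma, Benjamini-Hochberg adjustment). None of the 42 tested members passed at 0.05, where 4 of all genes did (0.0240%). The smallest adjusted p of a member was 0.754, shared by 6 members. Without adjustment 4 members had p below 0.05, 3 with higher means in mutants (Mmp17, Adamts16 and Mmp11) and 1 with a lower mean (Adamts2). That is 9.52% of the members tested, beside 6.57% of all genes tested, of which 2.78% had higher and 3.79% lower means. The count was 2 of 42 (4.76%, beside 5.23% of all genes) without control replicate 2 and 11 of 42 (26.2%, beside 7.5% of all genes) without mutant replicate 1. edgeR and DESeq2 on recovered whole reads also called 0 members after adjustment, and gave 4 and 6 with an unadjusted p below 0.05, beside 6.24% and 6.64% of all genes. The groups did not overlap for 1 member, Mmp17, beside 3.77% of all genes (1.86% higher and 1.91% lower in mutants). A log2 difference of 1 or more in size was seen for 1 member, Mmp24, beside 3.69% of all genes, and Mmp24 was at 0.21 without control replicate 3. Means were lower in mutants for 30 of 42 members and higher for 12, with a median log2 difference of -0.11, beside lower means for 8330 of the 16647 genes tested and a median of -0.00015 over them. The median of the members was -0.056 without mutant replicate 2 and -0.055 without control replicate 3.

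**Figure D2:**
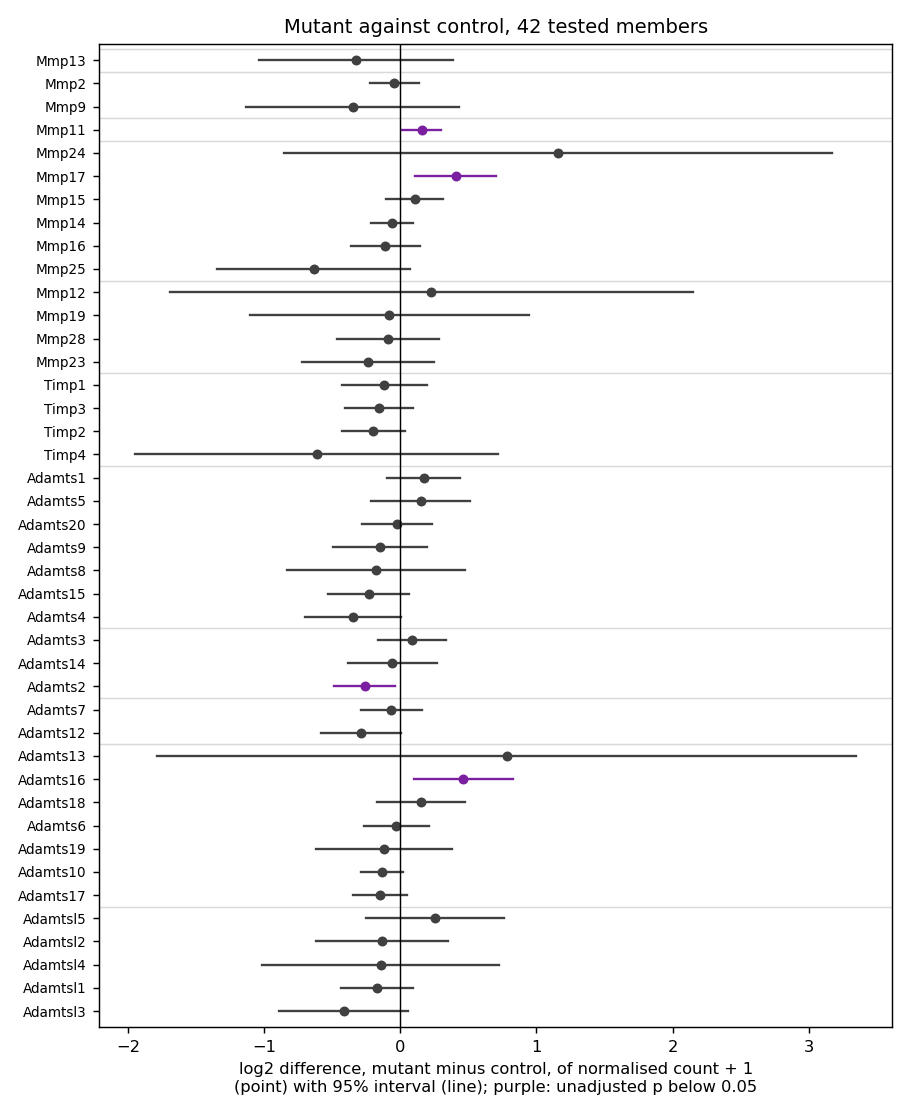
Log2 difference of normalised count plus 1, mutant minus control, for the 42 tested members, with the limma 95% interval as a line and members arranged by role. Intervals of Mmp2 and Mmp14 are narrow around 0, those of weakly expressed genes such as Mmp24, Mmp12 and Adamts13 are wide, and purple marks the 4 members with an unadjusted p below 0.05.

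Among the membrane-type MMPs, Mmp17, a protease tethered to the membrane by a lipid anchor, stood highest in mutants relative to its spread. In control replicates 1 to 4 Mmp17 had 359.9, 299.7, 325 and 321 normalised counts, and in mutant replicates 1 to 4 it had 516, 371, 436 and 416. Every mutant library lay above every control library, with mutant replicate 2 only just above control replicate 1. Its log2 difference came to 0.41 (SE 0.135, 95% interval 0.11 to 0.70, unadjusted p = 0.0114, adjusted p = 0.754), and leaving out any one library gave 0.32 to 0.48. The gene (ENSMUSG00000029436) lies on chromosome 5 (129584169 to 129611099 as deposited), and no other gene of the table overlaps it.

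Mmp14, the main collagenase of the cell surface, had 15321, 16262, 17632 and 15482 normalised counts in the controls and 17303, 14305, 14513 and 15838 in the mutants. Mutant replicates 2 and 3 lay below every control, control replicate 3 lay above every mutant, and the other libraries overlapped. For Mmp14 the log2 difference was -0.064 with a 95% interval of -0.22 to 0.091, which is 0.859 to 1.07 on the linear scale. Mmp25, a leukocyte-type membrane MMP, had 79.9, 93.7, 108 and 69.7 in the controls and 77.8, 67.2, 55.0 and 32.4 in the mutants. The lowest library was mutant replicate 4, and without it the log2 difference went from -0.64 to -0.39 (adjusted p = 0.773 with it). Mmp15 had a log2 difference of 0.10 and Mmp16 one of -0.11. Mmp24 had the largest difference of any member, 1.16, with an interval from -0.86 to 3.17 at 1.0 to 82.3 normalised counts. The value of 1.0 was that of control replicate 3, and the difference was 0.21 without that library and 0.70 without mutant replicate 2. The sources used here do not give the strand setting of the counting, so reads of overlapping genes may be mixed, and Mmp24 shares 637 bp with BC029722 (mean 511) on the opposite strand.

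The gelatinases differed in how steady they were. Mmp2, which cuts denatured collagen and basement membrane collagen, had 11717, 11603, 12932 and 11113 normalised counts in the controls and 12365, 9607, 11690 and 12375 in the mutants. Its libraries overlapped, with a log2 difference of -0.046 (95% interval -0.23 to 0.13), and 0.038 without mutant replicate 2. Mmp9, the gelatinase of osteoclasts and invading leukocytes, had 821, 684, 581 and 496 in the controls and 861, 199.7, 521 and 682 in the mutants. Mutant replicate 2 held the lowest value and mutant replicate 1 the highest of all 8 libraries. The log2 difference of -0.35 (SE 0.359, adjusted p = 0.881) turned to 0.087 without mutant replicate 2. Of 8 osteoclast markers, 3 were tested, Dcstamp and Atp6v0d2 were at 0 in all libraries, and the summed level was 1952 to 2412 in the controls and 1883 to 2728 in the mutants, with 1967 in mutant replicate 2. Their part in the Mmp9 values was not tested.

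Mmp13 was the only one tested in the group listed here as collagenases (Mmp1b, Mmp8 and Mmp13). It had 164, 132, 151 and 308 normalised counts in the controls and 104, 248, 145 and 108 in the mutants. Control replicate 4 and mutant replicate 2 were high within their groups, and the groups overlapped. The fitted difference (log2) was -0.33 (SE 0.327, adjusted p = 0.881), -0.064 without control replicate 4 and -0.59 without mutant replicate 2. Mutant replicate 2, where Mmp13 was high, was the library with the lowest summed osteoblast level (5983), hypertrophic chondrocyte level (3753) and chondrocyte level (9109) of the 8. Ibsp, a matrix protein of mineralising bone, had 726.9 normalised counts there, the lowest of all libraries. The part of bone and cartilage markers in the Mmp13 values was not tested.

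Mmp11, a stromal protease activated inside the cell by furin, had 3626, 3438, 4031 and 3762 normalised counts in the controls and 4443, 4004, 3876 and 4244 in the mutants. The groups met only where control replicate 3 lay above mutant replicates 2 and 3. Its log2 difference came to 0.16 (95% interval 0.013 to 0.30, unadjusted p = 0.0349, adjusted p = 0.754), and 0.12 to 0.20 with any one library left out. Mmp11 overlaps Chchd10 on the opposite strand by 3367 bp, and Chchd10 had a mean of 192 normalised counts. Mmp19, Mmp23 and Mmp28 had log2 differences of -0.081, -0.24 and -0.094, and Mmp12, the macrophage elastase, one of 0.23 with an interval from -1.69 to 2.15. Without control replicate 1 Mmp12 was at -0.58, and without control replicate 4 Mmp19 was at 0.10. Macrophage markers were all tested, 5 of 8 with higher means in mutants, and their summed level was 4043 to 4680 in the controls and 3886 to 5025 in the mutants.

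All 4 TIMPs had lower means in mutants and none passed. Timp2, which inhibits MMPs and bridges Mmp14 to the Mmp2 precursor, had 15217, 15530, 16591 and 14764 normalised counts in the controls and 16107, 10756, 12759 and 15020 in the mutants. Mutant replicates 2 and 3 lay below every control, while mutant replicates 1 and 4 lay among them. The fitted difference (log2) was -0.20 (95% interval -0.43 to 0.030, adjusted p = 0.773), and -0.091 without mutant replicate 2. Timp3, a matrix-bound inhibitor that also acts on ADAMTS proteases, had 7317, 6918, 9114 and 6980 in the controls and 7567, 5815, 7944 and 6004 in the mutants. Control replicate 3 was the highest, and without it the log2 difference of -0.15 was -0.063. Timp1 had 503, 567, 601 and 511 normalised counts in the controls and 555, 387, 486 and 604 in the mutants, with a fitted log2 difference of -0.12 that became 0.0063 without mutant replicate 2. Timp4, the weakest of the family, had 23.4, 17.6, 39.0 and 61.9 in the controls and 34, 7.6, 44.4 and 14.2 in the mutants, and its interval of the log2 difference ran from -1.95 to 0.72. The Timp4 difference was -0.61, -0.18 without mutant replicate 2 and -0.30 without control replicate 4. Timp1, Timp3 and Timp4 each lie inside a synapsin gene on the opposite strand (Syn1, Syn3 and Syn2), whose means were 126, 91.9 and 92.4 normalised counts.

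Summed over members, the TIMP level divided by the MMP level was lower in every mutant library than in every control. The summed MMP level per kilobase was 8763 ± 455 in the controls and 8682 ± 793 in the mutants (each SD over n = 4), while the summed TIMP level was 5536 ± 364 and 4922 ± 765. The ratio of the sums was 0.624, 0.638, 0.643 and 0.621 in control replicates 1 to 4 and 0.596, 0.508, 0.569 and 0.585 in mutant replicates 1 to 4. All mutant ratios lay below all control ratios, with mutant replicate 2 the lowest. In mutant replicate 1 the TIMP sum of 5695 lay within the controls (5232 to 6061). Its MMP sum of 9561 was the highest of the 8 libraries. Timp2 and Timp3 made up 87.1% to 89.4% of the TIMP sum, so the ratio rests on them and on Mmp14, Mmp2 and Mmp11. The ratio is a score over chosen members, has no share of all genes beside it and was given no test.

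**Figure D3:**
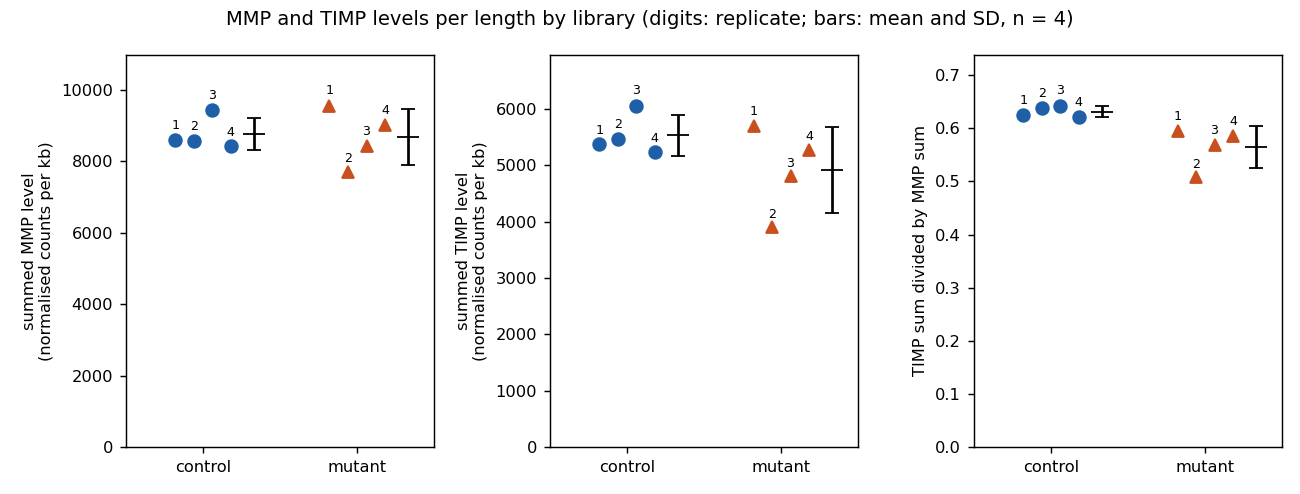
Summed MMP level, summed TIMP level (both in normalised counts per kilobase of merged exons) and their ratio in each library, with digits for the replicate and the mean and SD of 4 libraries beside the points. MMP and TIMP sums overlap between the groups, while the ratio is 0.621 to 0.643 in the controls and 0.508 to 0.596 in the mutants.

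The proteoglycan-cleaving ADAMTS group had 7 of 7 members tested, 5 with lower and 2 with higher means, and none passed. Adamts4, an aggrecanase, had 579, 749, 762 and 576 normalised counts in the controls and 632, 382, 571 and 523 in the mutants. Mutant replicate 1 lay above 2 of the controls and the other mutants lay below all of them. Its log2 difference came to -0.35 (SE 0.163, unadjusted p = 0.0537, adjusted p = 0.754), and -0.20 without mutant replicate 2. Adamts9, a versicanase, had 3652, 4061, 5599 and 3811 in the controls and 3043, 4520, 4661 and 3262 in the mutants. Mutant replicates 1 and 4 lay below every control, and control replicate 3 lay above every mutant. The difference of Adamts9 was -0.15 on the log2 scale, and -0.013 without control replicate 3. Its partner Adamts20 had 843 ± 148 in the controls and 820 ± 34.9 in the mutants, with a fitted log2 difference of -0.023 with an interval of -0.28 to 0.23. Adamts5, the other main aggrecanase, was at 0.15, Adamts1 at 0.17, Adamts15 at -0.23 and Adamts8 at -0.18. Adamts20 was at 0.079 without control replicate 3 and Adamts8 at 0.060 without mutant replicate 4.

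Of the procollagen N-propeptidases, Adamts2, which removes the amino-terminal propeptide of fibrillar procollagens, had the lowest unadjusted p of its group. It had 3417, 3965, 4113 and 4032 normalised counts in the controls and 3775, 2622, 3210 and 3422 in the mutants. Control replicate 1 lay below mutant replicates 1 and 4, and otherwise the mutants lay below the controls. The fitted difference (log2) was -0.26 (SE 0.102, 95% interval -0.49 to -0.038, unadjusted p = 0.0254, adjusted p = 0.754), and -0.16 without mutant replicate 2. Adamts14 was at -0.058, and 0.046 without mutant replicate 2, and Adamts3 at 0.086, and -0.0040 without control replicate 1. Of the substrates of this step, Col1a1 had 193799 ± 23342 in the controls and 152026 ± 28276 in the mutants (difference on the log2 scale -0.36, adjusted p = 0.754), while Col3a1 was at 0.036. Col2a1, whose regulatory sequence drives the Cre, had 17894 ± 4116 in the controls and 12072 ± 4318 in the mutants. Its log2 difference was -0.62 (adjusted p = 0.754), and its groups overlapped. Col1a2 and Col5a1 are not given here.

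The COMP-cleaving pair both had lower means. Adamts12 had 3692, 3546, 4329 and 3177 normalised counts in the controls and 3595, 2227, 3189 and 3163 in the mutants. Mutant replicate 2 lay far below the other libraries, and without it the log2 difference went from -0.29 to -0.15 (adjusted p = 0.754 with it). Adamts7 was at -0.068, and 0.037 without control replicate 3, and it shares 6045 bp with Tbc1d2b on the opposite strand. Comp itself, a cartilage and tendon matrix protein, was weak, with 20.4 ± 11.1 in the controls and 12.9 ± 1.85 in the mutants.

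Among the other ADAMTS proteases, Adamts16, best known from kidney and gonad, had 537, 414, 512 and 508 normalised counts in the controls and 531, 954, 616 and 669.6 in the mutants. Mutant replicate 2 was far above the rest, and mutant replicate 1 lay just below control replicate 1. Its log2 difference came to 0.46 (SE 0.166, 95% interval 0.10 to 0.83, unadjusted p = 0.0168, adjusted p = 0.754), and 0.30 without mutant replicate 2. That library also had the highest summed level of epithelial markers, 54892 against 27354 to 39560 in the controls and 30085 to 39693 in the other mutants, and all 9 epithelial markers had higher means in the mutants. The part of epithelium in the Adamts16 values was not tested. Adamts10 had 4684, 4102, 4895 and 4978 in the controls and 4594, 4138, 4021 and 4244 in the mutants, with a fitted log2 difference of -0.13 (adjusted p = 0.773). Adamts17, which like Adamts10 is tied to microfibrils, had 3524, 3602, 4122 and 3761 in the controls and 3873, 2926, 3135 and 3655 in the mutants, with a fitted log2 difference of -0.15, and -0.081 without mutant replicate 2. For both microfibril proteases the groups overlapped. Adamts18 was at 0.15, Adamts6 at -0.031, Adamts19 at -0.12 and Adamts13, the protease of von Willebrand factor, at 0.78 at no more than 17.2 normalised counts. One library moved each of these: Adamts18 was at -0.015 without mutant replicate 2, Adamts6 at 0.054 and Adamts19 at 0.076 without mutant replicate 4, and Adamts13 at 0.068 without control replicate 1.

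ADAMTS-like genes had lower means in 4 of 5 cases. Adamtsl3 had 449, 546, 459 and 406 normalised counts in the controls and 538, 239.5, 377 and 295 in the mutants. Mutant replicate 1 stood among the controls and the other mutants below them. The fitted difference (log2) was -0.42 (SE 0.217, adjusted p = 0.773), -0.24 without mutant replicate 2 and -0.63 without mutant replicate 1. Adamtsl1, Adamtsl2 and Adamtsl4 were at -0.17, -0.13 and -0.15, and Adamtsl5 at 0.25. Without control replicate 3 Adamtsl1 was at -0.042, Adamtsl2 at 0.075 and Adamtsl5 at 0.47, and Adamtsl4 was at 0.15 without control replicate 4, so the count of lower means rests in part on single libraries.

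Some libraries were often at the extremes. Mutant replicate 2 held the lowest value of the 8 libraries for 14 of 42 members (33.3%), beside 17.3% of all genes tested, and control replicate 3 the highest for 16 of 42 (38.1%), beside 14.4%. Members within a library share its tissue and its scaling, so these shares are a description. In mutant replicate 2 the summed levels of osteoblast, hypertrophic chondrocyte, chondrocyte, endothelial, macrophage and palatal mesenchyme markers were the lowest of the 8, and those of epithelial and neuron markers the highest. Endothelial markers, 7 of 8 with lower means in mutants, summed to 12954 there, 15542 to 17517 in the other mutants and 17710 to 18896 in controls. The part of these markers in the members' values was not tested. Without mutant replicate 2, 27 of 42 members had lower means in mutants, and 3 (7.14%) had an unadjusted p below 0.05, Mmp17, Adamts16 and Mmp11, beside 4.64% of all genes in that fit. Directions of some members depended on single libraries: over each of the 8 libraries left out in turn, 15 of 42 members reversed at least once, in 22 of 336 values, 7 of them without mutant replicate 2 and 15 without another library.

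**Figure D4:**
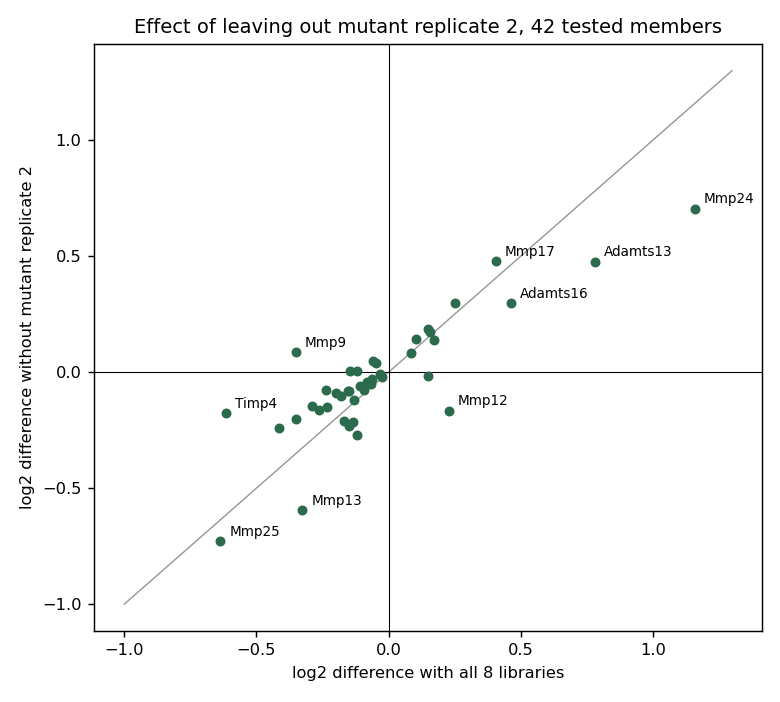
Log2 difference of each of the 42 tested members with all 8 libraries (horizontal axis) and without mutant replicate 2 (vertical axis), with the diagonal in grey. Mmp9 crosses from -0.35 to 0.087, Mmp17 stays at 0.41 and 0.48, and Mmp13 moves from -0.33 to -0.59.

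Other genes of matrix turnover were read in 3 lists chosen with earlier results of these data known. Of 17 genes that activate or restrain MMPs, 15 were tested, 12 with lower and 3 with higher means, and none passed. Reck, a membrane-anchored MMP inhibitor, had 3522 ± 374 normalised counts in the controls and 3116 ± 467 in the mutants (difference on the log2 scale -0.18). Plau, the urokinase that starts plasmin activation, had 628 ± 52.7 and 534 ± 74.6 (-0.24), Cd44, a surface docking site for MMPs, was at -0.24, and Bsg, an inducer of MMPs, at -0.089. The adjusted p of these 4 was 0.773 to 0.806.

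Of 22 other matrix and surface proteases, 20 were tested, 16 with lower means, and none passed. Phex, an endopeptidase of osteoblasts, had 277, 266.5, 59.5 and 330.0 normalised counts in the controls and 68.1, 61.5, 63.7 and 57.7 in the mutants. Control replicate 3 lay with the mutants, and the other controls lay far above them. Its log2 difference came to -1.63 (SE 0.454, adjusted p = 0.751). Phex passed without control replicate 3 and with DESeq2, and it is also on the osteoblast list. Pcolce, the enhancer of procollagen C-proteinase, was at -0.24, Adam12 at -0.23 and Htra3 at -0.25. Of 21 substrates, 20 were tested, 16 with lower means, and none passed. Bgn, a small proteoglycan, lay lower in every mutant library, with 24217 ± 1406 and 19697 ± 2659 (-0.31, adjusted p = 0.754). Groups did not overlap for 1 of the 20 tested substrates, beside 3.77% of all genes. Eln, elastin, was at -0.35, and Lama5, a laminin chain of epithelial basement membranes, at 0.42. The median log2 difference of the 3 lists was -0.16, -0.081 and -0.13 in that order.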

How the data were processed

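RNA from 8 libraries was analysed from 1 table of all genes. The values used are a signal deposited by the authors to 1 decimal: normalised counts, in which each gene count is divided by a size factor of its library. The log2 values were deposited by the authors as variance-stabilised values and used in 1 alternative. STAR 2.7.2 and DESeq2 stand in the submitters' processing notes; the sources used here do not give the counter, strand setting, annotation or build. Starts and ends equalled GENCODE M21 (GRCm38) for 46 of 50 members. Whole reads were recovered by finding the step of each library (100% of values from 50 to 5000 whole within 0.06).

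Differences were fitted with limma 3.58.1 (R 4.3.3) on log2(normalised count + 1), with a variance trend and genotype as the only term, over 16647 genes, two-sided, and Benjamini-Hochberg adjustment. Such fold changes understate those of weak genes. The fit was tested on simulated data. Lengths are merged exons. As alternatives, the pseudocount was set to 0.5 or 8, the filter was dropped or replaced by a mean of 50 or more, and the following were tried: TMM scaling, the stabilised values, edgeR 4.0.16, DESeq2 1.42.0, title numbers as a block and each library left out.

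Members and lists were chosen with earlier results of these data known. Values per library are given for the TIMPs, the 10 tested members with the smallest p, the 8 with the largest mean, Mmp2, Mmp9, Mmp13 and Mmp14; of other lists up to 4 genes with the smallest p. Col2a1, Col3a1, Comp and members given by their difference alone were named outside that rule. Skeletal muscle, Schwann, tendon and neutrophil markers were examined too, with summed levels of 26915 to 33643, 2812 to 3242, 20503 to 29403 and 15.4 to 70.3 in controls and 12877 to 49838, 2870 to 6321, 18162 to 25943 and 10.1 to 125 in mutants, and for neuron markers 1798 to 4038 and 2477 to 6419. Reads were not used here.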

Additional observations from a re-analysis of the deposited data

Results flagged for a closer look

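One value stood apart from the other libraries of its group by the gap test applied to 84 groups of 4 libraries, where chance alone marks about 1 group in 20. Adamtsl1, an ADAMTS-like matrix protein gene, had 2022 normalised counts in control replicate 3, and 1387 to 1436 in the other controls. Control replicate 3 was also the highest library for 16 of 42 members. Adamtsl1 shares 125024 bp with Sh3gl2 on the same strand.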

How the results depend on the processing

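Under the 17 alternatives 0 tested members passed, with a smallest adjusted p of 0.387 (Adamts16, DESeq2). Members with lower means numbered 27 to 33 of 42, with 32 of 47 when the filter was dropped and 28 of 37 at a mean of 50 or more. The median log2 difference was -0.22 to -0.042. The value of -0.042 came from the stabilised values, a scale on which differences are smaller (Mmp17 at 0.14, beside 0.41 in the main fit). Of the 19 members with values per library, chosen partly for a small p or a large mean, directions held in 319 of 322 values and reversed in 3, all without mutant replicate 2: Timp1 (-0.21 to 0.0063 over libraries left out), Mmp2 (-0.084 to 0.038) and Mmp9 (-0.61 to 0.087). Over all 42 tested members, leaving out a library reversed 22 of 336 values in 15 members, 15 of these values without a library other than mutant replicate 2. Members with an unadjusted p below 0.05 numbered 4, and with a library left out 2 (without control replicate 2; 4.76%, beside 5.23% of all genes) to 11 (without mutant replicate 1; 26.2%, beside 7.5%). Title numbers as a replicate block gave 13 (31%, beside 6.73% of all genes). This fit takes nothing from control replicate 1 and mutant replicate 1, whose numbers no other library shares. For deviations from the group mean, pairs across groups with the same number had r of 0.00157, 0.100, -0.00774 and 0.0342. Pairs across groups with different numbers had r of -0.0851 to 0.0757. Within a group, taking deviations from the mean of its own 4 libraries makes r negative on the whole. The sign of r there therefore says nothing about likeness, and only the order of pairs can be read. Within groups, r was -0.359 for control replicates 2 and 4, the lowest control pair. It was -0.23 for mutant replicates 2 and 3, the highest mutant pair. Not every library correlated best with its own number, and a shared origin of libraries with the same number was not tested. Among other matrix genes 1 passed, Phex, with DESeq2 or without control replicate 3, against 0. Over all genes limma called 4, edgeR 5 and DESeq2 28.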
